A study of Rattus norvegicus with 30 samples.

Results

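The genes described here are the ion channel and neurotransmitter receptor genes of a rat expression array, taken by the start of their platform symbol (Kcn, Scn, Cacn, Gabr, Gria, Grik, Grin, Grm, Chrn, Htr, Glra or Clcn). The prefixes named 198 of 14217 genes with a probeset of a single symbol, and each gene was followed by its probeset of highest mean signal. Of the 198 genes, 116 lay at or above the 30th percentile of mean signal and were tested, and 82 lay below it. The prefixes also caught 5 genes that are no channel or receptor subunit: the serine proteases Htra1, Htra2 and Htra3, Grina, a membrane protein named for an NMDA receptor subunit, and the splicing factor Scnm1. They are given apart, which leaves 193 subunit genes, 111 of them tested. The cells were frozen primary hepatocytes of male Sprague Dawley rats from a supplier, plated on collagen under a Matrigel overlay and dosed on the third day of culture with sodium valproate in water. Each of 6 groups held 5 arrays: water, 0.5 mM valproate and 10 mM valproate, harvested 24 h or 48 h after dosing. The labels call the 5 cultures of a group independent and make each 1 well of a plate, but do not say how many rats the cells came from, so p-values here measure the spread between cultures. The series belongs to a larger study of 10 compounds, each run at its own time, and these 30 arrays hold the valproate experiment.

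Ion channels are membrane proteins whose pore subunits pass potassium, sodium, calcium or chloride, and whose auxiliary subunits set where and when the pore opens. Ligand-gated receptors for glutamate, GABA, glycine, acetylcholine and serotonin are channels of the same kind, while the metabotropic glutamate receptors and most serotonin receptors signal through G proteins. Most of these genes are known from excitable tissue, and hepatocytes use a smaller number for membrane potential, volume and organelle acidity. Valproate is an antiepileptic drug that acts on sodium channels and GABA metabolism in neurons and also inhibits histone deacetylases.

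Promoter sequences are shown for 5 of the members with large called changes at 10 mM at both times, Clcn4, Kcnma1 and Kcnk5 on the lower side and Grm8 and Kcns3 on the higher side, chosen after their values were seen. Each runs from 250 bases before to 50 bases after the gene's start in RefSeq's GRCr8 assembly, 5′ to 3′ on the gene's strand, with GC boxes (GGGCGG on either strand) in capitals. The windows are chrX:27290689-27290988 on the plus strand for Clcn4, chr15:351675-351974 on the plus strand for Kcnma1, chr15:4171375-4171674 on the plus strand for Kcnk5, chr4:57687457-57687756 on the minus strand for Grm8 and chr6:39584056-39584355 on the minus strand for Kcns3.
Clcn4: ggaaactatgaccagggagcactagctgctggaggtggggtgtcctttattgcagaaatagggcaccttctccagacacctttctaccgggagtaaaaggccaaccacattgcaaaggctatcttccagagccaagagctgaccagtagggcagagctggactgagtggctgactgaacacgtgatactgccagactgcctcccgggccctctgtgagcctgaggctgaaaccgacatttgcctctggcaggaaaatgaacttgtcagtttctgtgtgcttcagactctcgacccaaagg
Kcnma1: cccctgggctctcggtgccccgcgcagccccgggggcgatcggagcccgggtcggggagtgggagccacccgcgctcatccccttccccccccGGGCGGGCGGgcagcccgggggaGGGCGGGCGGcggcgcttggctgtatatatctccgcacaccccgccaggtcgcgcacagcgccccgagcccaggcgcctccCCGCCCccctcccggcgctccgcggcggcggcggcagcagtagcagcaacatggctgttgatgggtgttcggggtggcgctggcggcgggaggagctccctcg
Kcnk5: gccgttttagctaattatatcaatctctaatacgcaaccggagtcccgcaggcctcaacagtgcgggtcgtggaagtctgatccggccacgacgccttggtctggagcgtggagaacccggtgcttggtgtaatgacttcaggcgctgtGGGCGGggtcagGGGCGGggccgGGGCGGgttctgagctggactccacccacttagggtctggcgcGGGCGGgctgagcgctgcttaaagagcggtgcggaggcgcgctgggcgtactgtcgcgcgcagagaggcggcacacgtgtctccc
Grm8: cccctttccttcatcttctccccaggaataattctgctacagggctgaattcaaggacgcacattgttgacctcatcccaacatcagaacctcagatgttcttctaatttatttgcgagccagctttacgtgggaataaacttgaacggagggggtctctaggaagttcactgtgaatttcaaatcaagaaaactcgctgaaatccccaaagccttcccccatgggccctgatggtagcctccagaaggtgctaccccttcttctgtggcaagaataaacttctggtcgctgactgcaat
Kcns3: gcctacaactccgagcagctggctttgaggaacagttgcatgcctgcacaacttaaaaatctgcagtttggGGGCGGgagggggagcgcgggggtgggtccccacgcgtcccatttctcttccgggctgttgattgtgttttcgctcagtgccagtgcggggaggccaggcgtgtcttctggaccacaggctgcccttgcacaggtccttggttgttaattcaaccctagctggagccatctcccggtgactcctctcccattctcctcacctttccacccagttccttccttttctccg

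The Kcnma1 window held 5 GC boxes and the Kcnk5 window 4, that of Kcns3 held 1, and none was in those of Clcn4 and Grm8. A promoter was matched for 142 of the 198 members. A GC box was in 50.7% of these 142 windows, against 34.9% of all 27457 promoter windows of that length. It was in 46 of the 82 windows of tested members (56.1%). Among members called at 10 mM at either time it was in 11 of 14 lower ones and 5 of 11 higher ones, and among those called at both times in 4 of 7 lower ones and 3 of 6 higher ones. The median GC content was 60.3% in the members' windows and 52.3% in all windows, and the part of base composition in these shares was not tested. The pentamer CCAAT (both strands) was in 27.5% of the members' windows and 37.7% of all, and the hexamer TATAAA (both strands) in 7.04% and 14.3%. The RE1 element binds the silencing factor Rest, which represses neuronal genes outside the nervous system. Its left arm, searched as TTCAGCACC on both strands, was in 2 members' windows (1.41%, against 0.379% of all), and its right arm, searched as GGACAGCG, in 5 (3.52% against 1.28%). In the 82 windows of tested members the left arm was in 0 and the right arm in 4 (4.88%). The right-arm windows include that of the prefix-only gene Htra1. These are matches of letters in a short window, and no factor's binding was measured.

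Across the 30 arrays, replicate arrays correlated at a median of 0.969, no pair exceeded 0.9761, and each array's trimmed mean was scaled to between 1500.5 and 1500.7. The 3'/5' actin control ratio, a sign of RNA quality, exceeded 2 on the log2 scale on water 24 h replicate 3 and on 0.5 mM 48 h replicates 3 and 4. The 9 measured hepatocyte markers had a summed signal of 507900 to 647500 in water at 24 h and 431900 to 520300 at 10 mM, which overlap. Of the 9, 7 were called lower there. At 10 mM and 48 h 5 were lower and 1 higher, with overlapping sums (498600 to 579800 in water, 442800 to 510900). At 0.5 mM 3 were higher at 24 h (591200 to 711400) and 1 at 48 h (560300 to 607000), none was lower, and the sums overlapped water. Of all genes, 25% were lower and 31.1% higher at 10 mM and 24 h, and 22.3% and 27.6% at 48 h. At 0.5 mM these shares were 16.1% and 12.7%, then 14.1% and 11.9%. Of other liver cells, 4 of 6 tested Kupffer cell and macrophage markers were called lower at 10 mM at 24 h (sum of 9 genes 10610 to 11250 in water, 7874 to 9099 at 10 mM). So were 2 of 7 stellate and fibroblast, 1 of 4 endothelial and 1 of 2 cholangiocyte markers, with none higher. These few markers stand beside 25% of all genes lower and 31.1% higher. The sums were 4042 to 4721 and 3088 to 3525 for the 10 stellate genes, without overlap. They were 1248 to 2141 and 962 to 1395 for the 6 endothelial genes, and 7197 to 8743 and 6381 to 7275 for the 5 cholangiocyte genes, and both of these overlapped. Of neuron and glia markers, 4 of 8 on the array were tested and none was called at either 10 mM time, with sums of 1682 to 2359 in water and 1792 to 2584 at 10 mM at 24 h, and the 1 tested lymphocyte marker was not called. The sums at 10 mM and 48 h lay below water without overlap for Kupffer (9835 to 10330 in water, 6762 to 7486), stellate (4284 to 4979, 3223 to 3917) and cholangiocyte markers (10580 to 12260, 4967 to 6585), with 4, 3 and 1 called lower. They overlapped for endothelial (1139 to 1620, 986 to 1581) and neuron and glia markers (2051 to 3285, 1747 to 2175). The Kupffer (11510 to 13380), stellate (4969 to 5410) and cholangiocyte sums (9205 to 9631) at 0.5 mM and 24 h lay above those in water without overlap, with 1 cholangiocyte marker called higher, while endothelial (1653 to 2081) and neuron and glia sums (2282 to 2702) overlapped water. The Kupffer sums at 0.5 mM and 48 h (8271 to 9720) lay below those in water, with 1 marker called lower, and the other sums overlapped, with 1 stellate marker called lower and 1 endothelial marker higher. No listed marker has a value of 0 by the way these signals are made. The part of these other cells in the members' changes was not tested, and in bulk RNA fewer cells of a type and less RNA per cell cannot be told apart.

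The channel and receptor genes had dim and variable signals, and in each treatment comparison most of those tested were not called. At 10 mM for 24 h, 10 of the 116 tested members were higher than in water and 10 lower (8.62% each), against 31.1% and 25% of all 11604 genes tested. These include the prefix-only genes Htra1, Scnm1, Htra3 and Grina, and of the 111 tested subunit genes 8 were higher and 8 lower (7.21% each). At 48 h 10 were higher and 15 lower, against 27.6% and 22.3% of genes, and of the subunit genes 8 and 14. At 0.5 mM for 24 h 12 were higher and 1 lower, against 12.7% and 16.1%, and at 48 h 5 were higher and 4 lower, against 11.9% and 14.1%. Of the subunit genes these were 12 and 1, then 4 and 4. A call is an adjusted p under 0.05 from limma's moderated test of log2(signal + 16), Benjamini-Hochberg over 21729 probesets, and the 2 doses at a time share their water arrays. The median change of the tested members was 0.02 at 10 mM and 24 h (0.07 for all genes), -0.10 at 48 h (0.03), 0.32 at 0.5 mM and 24 h (0.02) and -0.01 at 48 h (-0.01). Their median standard error was 0.268, against 0.132 for all genes, and the median member lay at the 34.5th percentile of mean signal, against 66.7 for all genes. Between water at 48 h and at 24 h no member was called higher and 1 lower (Clcn3), against 5.11% and 4.96% of genes, with 13 higher and 4 lower at an unadjusted p under 0.05. Another scaling moved the split: quantile normalization gave 6 higher and 13 lower members at 10 mM and 24 h, and centring on ribosomal protein genes, which moved the median of all genes from 0.07 to 0.17, gave 15 and 5. At 48 h these gave 7 and 18, and 12 and 7 (median of all genes 0.22), and at 0.5 mM they gave 7 and 2, and 7 and 1 at 24 h, and 5 and 4, and 7 and 0 at 48 h (median of all genes 0.18 after ribosomal centring).

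Since the members were dimmer than most genes, the shares were also set side by side within bands of signal, with no test of the difference. The bands do not make the precision equal. From the dimmest band up, the median standard error was 0.326, 0.2 and 0.127 for members and 0.311, 0.162 and 0.0915 for all genes. At 10 mM and 24 h the members' shares lay below those of all genes in each band, and in the other comparisons they lay on both sides. At 24 h, between the 30th and 50th percentiles, 19.2% of 2184 genes were called higher and 6.14% lower, and of 75 members 5 were higher and 3 lower (6.67% and 4%). Between the 50th and 75th percentiles 32.6% and 18.8% of 3796 genes were called, and 4 and 5 of 35 members. Only 6 members lay above the 75th percentile, where 1 was higher and 2 lower, beside 34.8% and 36.4% of 5624 genes. The members' lower calls at 10 mM and 48 h were 6.67% and 25.7% in the first 2 bands, against 6.59% and 16.4% of genes, and their higher calls 5.33% and 11.4%, against 14.9% and 27.9%. In the topmost band 2 of the 6 members were higher and 1 lower, against 32.3% of genes in each direction. The members' higher calls at 0.5 mM and 24 h were 6.67% and 20% in the first 2 bands, against 7.69% and 11.1% of genes, with no lower calls against 2.11% and 10.7%. Their higher calls at 0.5 mM and 48 h were 1.33% and 5.71%, against 2.84% and 8.51%, and lower calls 2.67% and 5.71%, against 2.06% and 7.35%. The higher median of the members at 0.5 mM and 24 h lay in the dimmer bands, where all genes also had a raised median: 0.38 for members and 0.26 for genes between the 30th and 50th percentiles, and 0.22 and 0.05 between the 50th and 75th. After quantile normalization these medians were 0.19 and 0.05, and 0.10 and -0.03.

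**Figure D1:**
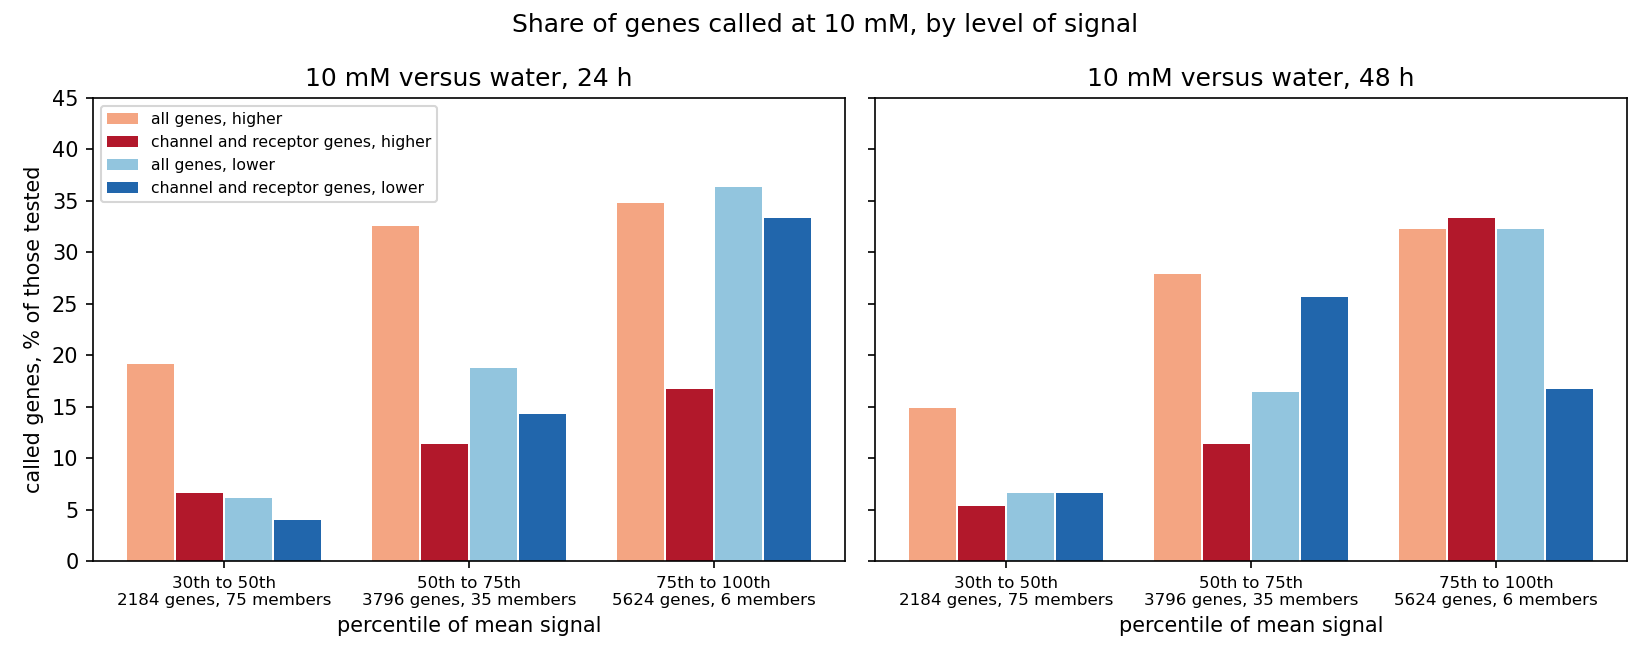
Bars give the percent of tested genes called higher or lower at 10 mM against water at 24 h (left) and 48 h (right) in 3 bands of mean signal, for all genes and for the channel and receptor genes. At 24 h the members' bars lie below those of all genes in each band, while at 48 h their lower calls reach 25.7% in the middle band against 16.4% of genes, and the topmost band holds only 6 members.

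The calls at 10 mM were of the same sign at both times for 14 genes, 7 higher and 7 lower. A further 3 higher and 3 lower at 24 h were not called at 48 h, 3 and 8 were called at 48 h alone, and none was called in opposite directions. Among these are the prefix-only genes Htra1 and Scnm1, higher at both times, Htra3, lower at both, and Grina, lower at 24 h alone. The counts by family below leave these genes out. Counts over both times were not made for all genes. Of all genes tested, 31.1% were called higher and 25% lower at 24 h, and 27.6% and 22.3% at 48 h. The 10 mM effect at 48 h less that at 24 h was called for no member, against 6.63% of genes higher and 6.2% lower, and 7 and 8 members had an unadjusted p under 0.05. By family at 24 h, 2 of 18 tested voltage-gated potassium pore genes were higher and none lower, 1 and 2 of 10 potassium auxiliary genes, 1 and 0 of 11 inward rectifiers, 0 and 1 of 8 tandem-pore potassium genes, 0 and 1 of 3 calcium- or sodium-activated potassium genes, 1 and 0 of 3 voltage-gated sodium genes and 0 and 2 of 15 calcium channel genes. Of the receptors, 1 and 1 of 7 ionotropic glutamate genes and 1 and 0 of 4 metabotropic ones were called, as were 1 and 1 of 5 CLC genes. None of 3 epithelial sodium channel genes, 8 GABA-A, 1 glycine, 7 nicotinic and 8 serotonin receptor genes was called at 24 h by limma (adjusted), and at an unadjusted p under 0.05 there was 1, a GABA-A subunit on the lower side.

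**Figure D2:**
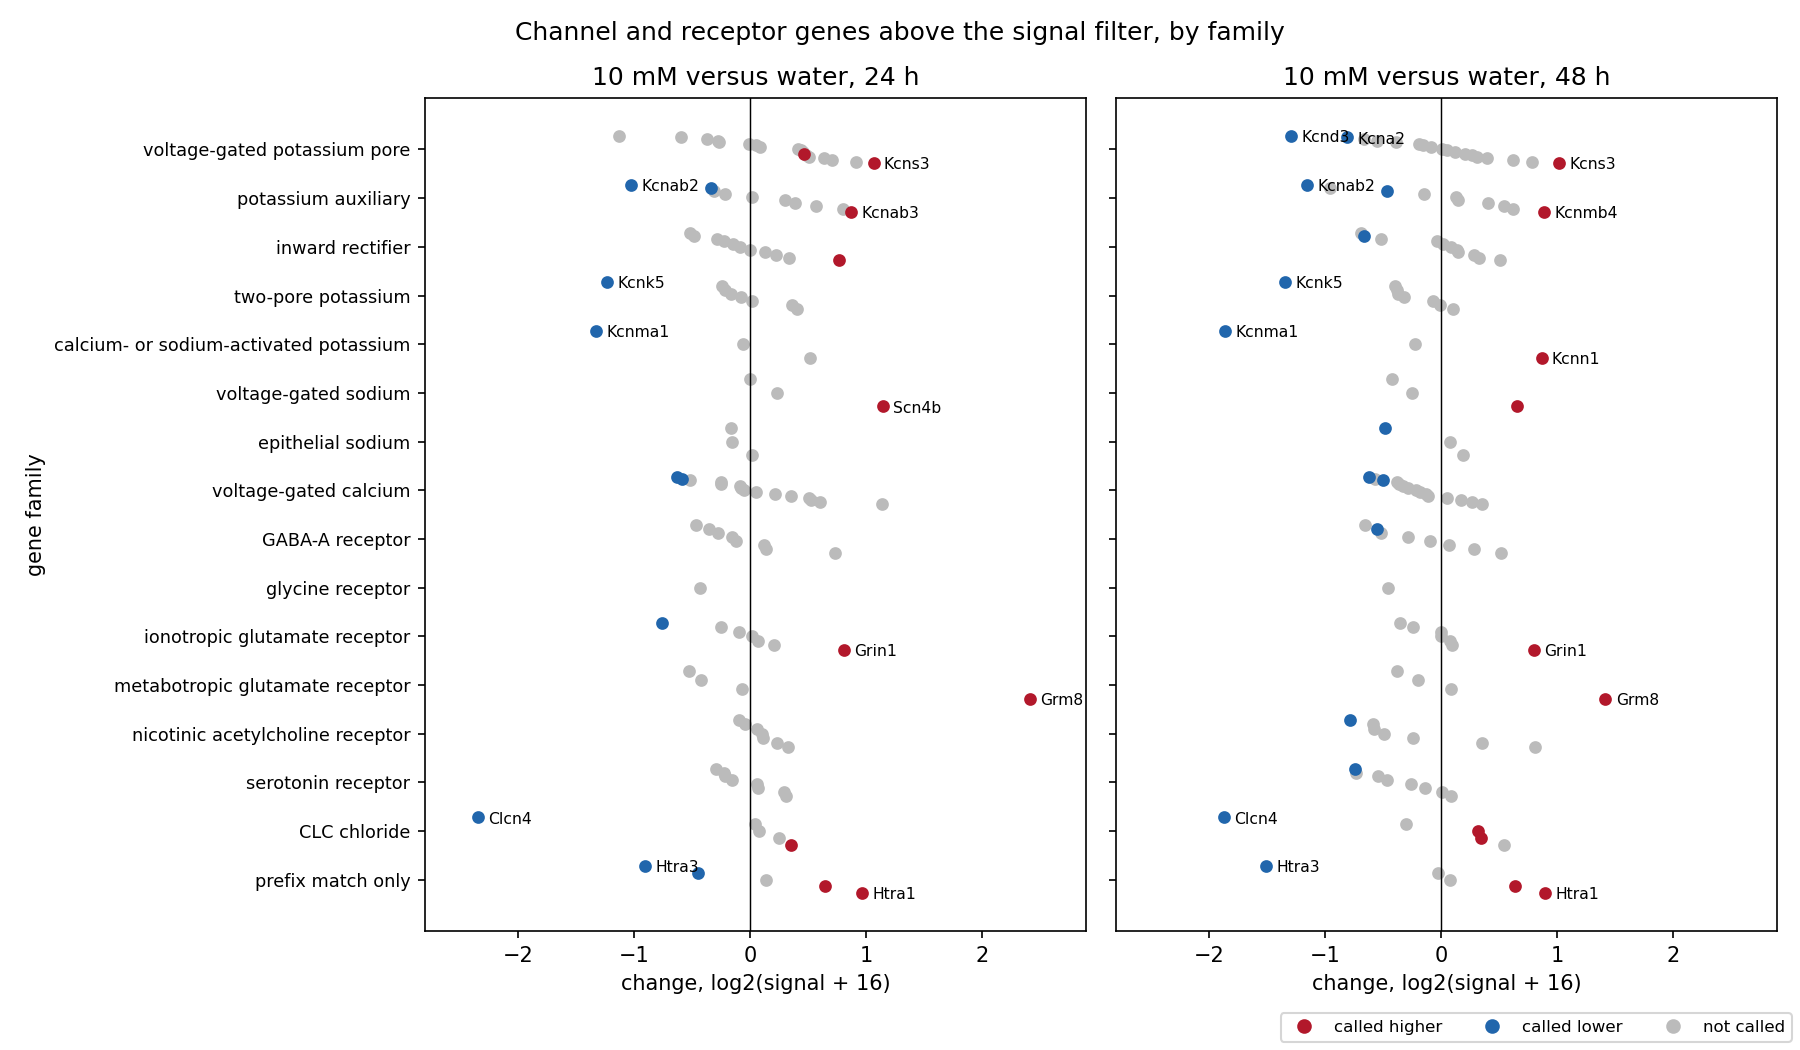
Each point is the change of 1 tested gene at 10 mM against water in log2(signal + 16), by family (rows), at 24 h (left) and 48 h (right), with called genes in colour and those of 0.8 or more named. Clcn4 lies at -2.35 and Grm8 at 2.41 at 24 h, and most families hold more uncalled than called genes.

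The CLC family held the largest fall. Clcn4, a chloride-proton exchanger of endosomes, had signals of 10137, 9381, 10649, 8967 and 9238 in the water cultures at 24 h and of 1842, 1722, 1952, 1697 and 2271 at 10 mM. At 48 h the water cultures gave 8142, 8341, 7327, 8182 and 8318 and those at 10 mM gave 2036, 3658, 1834, 1725 and 2142. Every 10 mM array lay below every water array at both times, and replicate 2 at 48 h stood above the other 4. Clcn4 fell by 2.35 at 24 h (standard error 0.125, adjusted p 3.4e-16) and fell by 1.87 at 48 h (adjusted p 1.36e-13) on the log2 scale, and both calls held in every alternative run. Its other probeset also was lower, with changes of -1.18 (adjusted p 0.000296) and -1.55 (adjusted p 9.7e-06). At 0.5 mM the signals were 10030.3, 10170.4, 10123, 10404 and 10840.1 at 24 h, where the change was 0.09 (adjusted p 0.616), and 11879, 11206, 13839, 14589.6 and 15770.3 at 48 h. All 5 of the latter exceeded the water cultures, and the rise was 0.73 (standard error 0.125, adjusted p 6.28e-05). The other probeset of Clcn4 had -0.25 there (adjusted p 0.548) and was higher at 24 h instead, with 0.73 (adjusted p 0.0394), and the call ended with the mean over the gene's probesets (0.24). So the kept probeset was higher at 0.5 mM and lower at 10 mM at 48 h, both against the same water arrays. The 0.5 mM effect differed between times by 0.63 (adjusted p 0.0128). For Clcn4 between times, the call ended in 3 of 13 other settings (-0.17 to 0.54). These were the mean over the gene's probesets, the RNA quality covariates and leaving out the 3 arrays of highest actin ratio. Replicates 3, 4 and 5 at 0.5 mM and 48 h, with log2 actin ratios of 2.76, 2.23 and 1.74, gave that group's highest signals.

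Clcn3, an exchanger of the same endosomal branch, moved with dose and time in another way. Its signals in water at 24 h were 7269, 7373, 6268, 6149 and 5987, and at 0.5 mM 4042, 4439, 4297, 4184 and 4225. All 5 cultures at 0.5 mM lay below all 5 in water, and Clcn3 fell by 0.63 (standard error 0.0677, adjusted p 2.9e-08). All 4 probesets of the gene were lower there, from -0.43 to -0.74, and 3 of them were called. At 48 h the water signals were 5379.7, 5845, 5851, 5330.1 and 6051 and those at 0.5 mM 5451, 5274, 5026, 6230.5 and 6315, with a change of -0.01 (adjusted p 0.931). The effect of 0.5 mM differed between times by 0.62 (standard error 0.0957, adjusted p 0.000108), and both this and the fall at 24 h held in every alternative run. At 10 mM the change was 0.08 (adjusted p 0.368) at 24 h and 0.34 (standard error 0.0677, adjusted p 9.78e-05) at 48 h, where the 10 mM signals of 7627, 6702, 7556, 6989 and 7226 lay above the water signals. Its other 3 probesets had -0.07, 0.16 and 0.13 at 48 h, none called, while 1 of them was higher at 10 mM and 24 h, with 0.53 (adjusted p 0.00045), and lower at 0.5 mM and 48 h, with -0.39 (adjusted p 0.0167). For the kept probeset at 10 mM and 48 h, the call ended with the mean over the gene's probesets (0.14). In water Clcn3 was lower at 48 h than at 24 h with a change of -0.21 (adjusted p 0.0499), but the call ended in 9 of 13 other settings (-0.30 to -0.12), and without water 24 h replicates 1, 2 or 3 or without any 1 of the 5 water 48 h arrays (-0.23 to -0.17).

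Of the other CLC genes, Clcn6, a late endosomal exchanger, had signals of 976, 1004, 1271, 912 and 804 in water and 1254, 1122, 1268, 1209.9 and 1483 at 10 mM at 24 h, which overlap. It rose by 0.36 (adjusted p 0.0125) at 24 h and 0.32 (adjusted p 0.0287) at 48 h. For Clcn6 at 24 h, the call ended with quantile normalization (0.22) and with the mean over the gene's probesets (0.11), and without water replicate 5 (0.29). For Clcn6 at 48 h, the call ended with quantile normalization (0.20) and with the mean over the gene's probesets (0.12), and without 10 mM replicates 3 or 5 or without water replicates 1 or 4 (0.25 to 0.31). Clcn2, a plasma membrane chloride channel, rose at 0.5 mM and 48 h by 1.04 (adjusted p 0.0131), from 345, 246, 57.8, 298 and 296 in water to 335, 461, 498, 576 and 474. Water replicate 3 stood far below the rest. For Clcn2, the call ended in 3 of 12 other settings (0.61 to 1.04), and without water replicate 3 (0.62). Clcn1, the chloride channel of skeletal muscle, was not called in any of the 4 treatment comparisons (-0.30 to 0.46). Clcn7, the lysosomal exchanger, lay below the signal filter and so was not tested, as did Clcn5. Its signals were 40.1, 43.0, 35.1, 57.5 and 57.2 in water and 303, 120.5, 209, 126 and 314 at 10 mM at 24 h, without overlap, but 154, 179.9, 194, 214 and 233 and 246, 172, 98.3, 394 and 55.6 at 48 h, where the groups overlap. With no filter the 24 h difference was 1.80 (adjusted p 0.000416) and the 48 h difference -0.25 (adjusted p 0.706), and water alone differed by 1.76 between the times (adjusted p 0.00655).

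**Figure D3:**
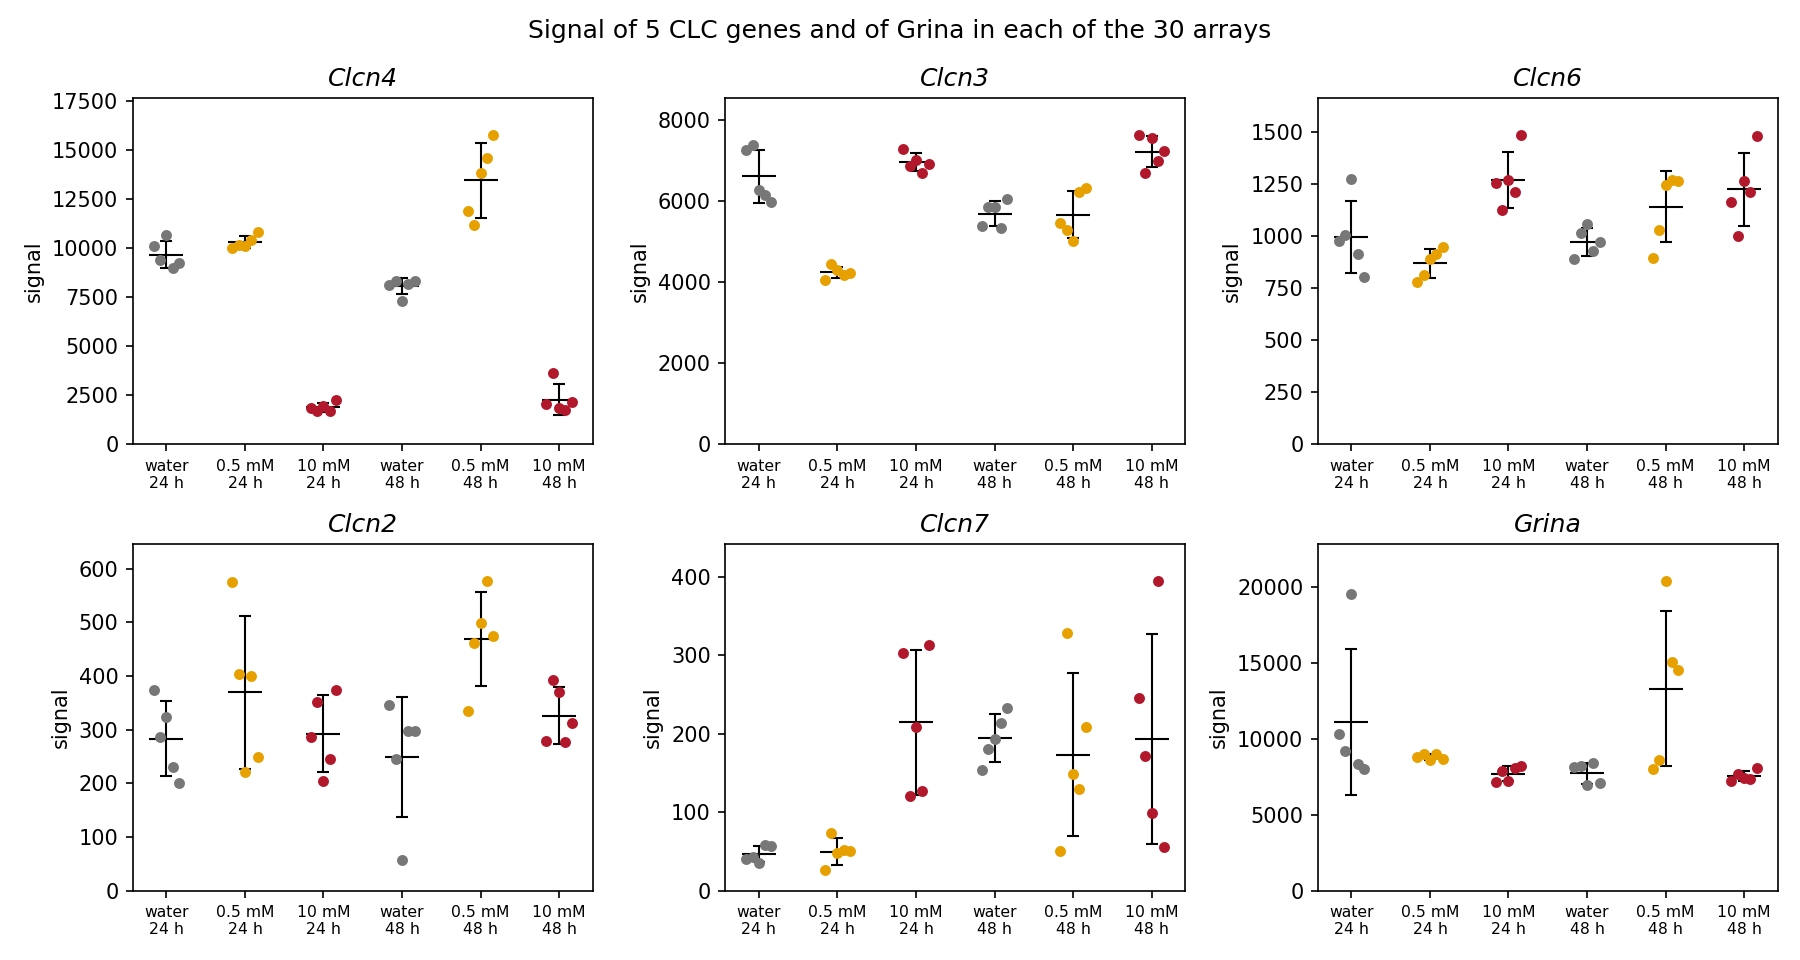
Points are the signals of the 30 arrays in the 6 groups for 5 CLC genes and for Grina, with the mean and SD of 5 arrays as bars, on linear axes from 0. Clcn4 is low at 10 mM at both times, Clcn3 is low at 0.5 mM at 24 h, and Grina is high on 4 arrays of the water 24 h and 0.5 mM 48 h groups.

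Among potassium channels, 2 pore genes held the firmest falls. Kcnma1 encodes the pore of the BK channel, which opens with calcium and voltage. Its signals in water were 613, 388, 741, 426 and 492 at 24 h and 680.4, 534, 644, 618 and 618 at 48 h, and at 10 mM they were 173, 190.4, 174, 194 and 267 and 139, 219, 138, 152 and 154. No 10 mM array reached a water array of its time. Kcnma1 fell by 1.32 at 24 h (standard error 0.165, adjusted p 4.33e-08) and fell by 1.86 at 48 h (adjusted p 5.8e-11), and both calls held in every alternative run. At 0.5 mM it had -0.01 (adjusted p 0.983) and -0.0037 (adjusted p 0.992). Its other 2 probesets lay below the filter and differed in sign at 10 mM, with 0.52 and -0.88 at 24 h and 1.07 and -0.88 at 48 h.

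Kcnk5, a tandem-pore leak channel that responds to alkaline pH and takes part in volume control, had water signals of 563, 456, 962, 409 and 491 at 24 h and 454, 579, 503, 377 and 378 at 48 h. At 10 mM they were 238, 223, 305, 193 and 185 and 149, 240, 110.1, 146 and 232, again without overlap. Kcnk5 fell by 1.23 (standard error 0.223, adjusted p 2.41e-05) and fell by 1.34 (adjusted p 8.49e-06), and both calls held in every alternative run. At 0.5 mM and 48 h the signals were 519.5, 707, 963, 855 and 658, overlapping those in water, and the rise was 0.66 (adjusted p 0.0302). For Kcnk5 at 0.5 mM, the call ended with the RNA quality covariates (0.24) and with leaving out the 3 arrays of highest actin ratio (0.45), and without 0.5 mM replicates 3 or 4 or without water replicates 4 or 5 (0.56 to 0.60). The 2 arrays of high actin ratio in that group, replicates 3 and 4, gave its top 2 signals. None of the other 7 tested tandem-pore genes was called against water at either dose and time. For Kcnk6 the effect of 0.5 mM differed between times by -0.92 (adjusted p 0.0468), but the call ended in 8 of 12 other settings (-0.92 to -0.38), and without 0.5 mM 24 h replicates 2, 3 or 5 or without 0.5 mM 48 h replicates 1, 3, 4 or 5 or without water 24 h replicates 2, 3 or 5 or without water 48 h replicates 1, 3, 4 or 5 (-0.95 to -0.79).

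Kcns3, a silent subunit that modifies other voltage-gated potassium channels, was dim in water. Its signals were 146, 142, 93.1, 210.4 and 119 at 24 h and 158, 61.3, 290.4, 61.8 and 143 at 48 h, and at 10 mM 300, 330, 342, 264 and 296 and 319.9, 249.7, 290, 222 and 251. The groups were apart at 24 h, and at 48 h water replicate 3 lay among the 10 mM arrays. Kcns3 rose by 1.07 (standard error 0.297, adjusted p 0.00321) and 1.02 (adjusted p 0.00573), and both calls held in every alternative run. Most of its water signals lay under the filter level of 152.2 and all 10 mM signals above it. Its place above the filter therefore rests in part on the groups where it is high. With no filter limma gave an adjusted p of 0.00412 at 24 h. Kcng3, another silent subunit, rose at 0.5 mM and 24 h by 0.74 (adjusted p 0.00503), from 291, 149, 261, 159.7 and 222 to 436, 323, 358, 396 and 309.9, a call that held in every alternative run. At 10 mM and 24 h it was higher by 0.47 (adjusted p 0.0445). For Kcng3 at 10 mM, the call ended in 4 of 12 other settings (0.29 to 0.49), and without 10 mM replicates 3, 4 or 5 or without water replicates 2, 4 or 5 (0.35 to 0.49). Kcnv2, of the same silent kind, rose at 0.5 mM and 24 h by 0.78 (adjusted p 0.00152), with water at 315, 300.5, 199.8, 174 and 278 and 0.5 mM at 431, 384, 509.5, 369.7 and 498, without overlap and in every alternative run. Kcnd3, a pore of transient outward current, was lower at 10 mM and 48 h with a change of -1.29 (adjusted p 0.0448), with signals of 39.9, 245, 28.6, 109 and 243 against 249.8, 272, 365, 239 and 231. For Kcnd3, the call ended in 4 of 11 other settings (-1.29 to -1.10), and without 10 mM replicates 1, 3 or 4 or without any 1 of the 5 water arrays (-1.34 to -0.95). Kcna2, a delayed rectifier pore, was lower then with a change of -0.81 (adjusted p 0.029). For Kcna2, the call ended with centring on ribosomal protein genes (-0.62) and with a fit of only the groups compared (-0.81), and without 10 mM replicates 1 or 3 or without water replicates 1, 3 or 4 (-0.75 to -0.57).

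Of the potassium auxiliary genes, Kcnip3, a calcium-binding partner of transient potassium channels that is also known as a transcriptional repressor, fell a little but evenly. Its signals were 1012, 1137, 913, 1059 and 1062 in water and 819, 800.5, 883, 838 and 753 at 10 mM at 24 h, and 1112, 942, 1193, 893 and 1018 and 831, 690.4, 694, 838 and 667 at 48 h, with no overlap at either time. The falls were -0.33 (adjusted p 0.0155) and -0.46 (adjusted p 0.00124). For Kcnip3 at 24 h, the call ended with centring on ribosomal protein genes (-0.23) and with the mean over the gene's probesets (-0.19). For Kcnip3 at 48 h, the call ended with centring on ribosomal protein genes (-0.27) and with the mean over the gene's probesets (-0.24). Kcnab2, a beta subunit of voltage-gated potassium channels, was lower with a change of -1.02 (adjusted p 0.0166) and -1.15 (adjusted p 0.00861), with 10 mM signals of 340, 361, 279, 78.5 and 123 and 229, 269.7, 401, 79.6 and 102 against 422, 369, 355, 445 and 611 and 482, 382, 521, 529 and 291 in water. Replicates 4 and 5 at 10 mM were the lowest at both times, and its other tested probeset had 0.15 and -0.15. For Kcnab2 at 24 h, the call ended with the RNA quality covariates (-0.86), and without 10 mM replicates 4 or 5 (-0.86 to -0.72). Kcnab3, a further beta subunit, rose at 24 h by 0.88 (adjusted p 0.013). For Kcnab3, the call ended without water replicate 5 (0.69). Kcnmb4, a BK channel beta subunit, was higher at 48 h by 0.89 (adjusted p 0.0369), while its change at 24 h was -0.31 (adjusted p 0.498). For Kcnmb4 at 48 h, the call ended with quantile normalization (0.78) and with no signal filter (0.89), and without 10 mM replicates 2, 4 or 5 or without water replicates 1 or 3 (0.65 to 0.91). Kcnab1, another beta subunit, rose at 0.5 mM and 24 h by 0.95 (adjusted p 0.00209), from 365, 324, 322, 210.2 and 234 to 421, 523, 550.3, 682 and 695, and its effect differed between times by -1.29 (adjusted p 0.00516). For Kcnab1 at 24 h, the call ended with the mean over the gene's probesets (0.52). For Kcnab1 between times, the call ended with the mean over the gene's probesets (-0.74) and with the RNA quality covariates (-1.52). Kcnip2 was higher there by 0.61 (adjusted p 0.0495). For Kcnip2, the call ended in 7 of 11 other settings (0.42 to 0.64), and without any 1 of the 5 0.5 mM arrays or without water replicates 1, 2 or 4 (0.34 to 0.65).

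For each of the remaining called potassium genes, leaving out 1 array could end the call. Kcnn1, a small-conductance calcium-activated channel, rose at 10 mM and 48 h by 0.87 (adjusted p 0.0174), with 287, 186, 346, 119.5 and 413 in water and 458, 444, 361, 631 and 470.1 at 10 mM. For Kcnn1, the call ended without 10 mM replicate 4 or without water replicates 2 or 4 (0.63 to 0.77). Of the inward rectifiers, Kcnj14 was higher at 10 mM and 24 h by 0.77 (adjusted p 0.0199) and lower at 0.5 mM and 48 h with a change of -0.92 (adjusted p 0.014). For Kcnj14 at 10 mM, the call ended with quantile normalization (0.58) and with the RNA quality covariates (0.59), and without 10 mM replicate 4 or without water replicate 3 (0.69). For Kcnj14 at 0.5 mM, the call ended in 4 of 12 other settings (-0.92 to -0.51), and without 0.5 mM replicate 4 (-0.65). The effect of 0.5 mM on Kcnj14 differed between times by -1.25 (adjusted p 0.0232). For Kcnj14 between times, the call ended in 5 of 12 other settings (-1.25 to -0.63), and without 0.5 mM replicate 4 (-0.98). Kcnj5, a G protein gated rectifier, was lower at 10 mM and 48 h with a change of -0.67 (adjusted p 0.0449). For Kcnj5, the call ended in 4 of 11 other settings (-0.67 to -0.48), and without 10 mM replicates 1, 2, 3 or 4 or without water replicates 1, 3 or 5 (-0.69 to -0.52).

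Few sodium channel genes were bright enough to test. Of 12 voltage-gated sodium genes 3 passed the filter, the auxiliary subunits Scn3b and Scn4b and the pore Scn11a, and the other 9 were too dim to test. Scn4b, a beta subunit, had signals of 329, 267, 247, 147 and 170.2 in water, 342, 267, 539.6, 404 and 449 at 0.5 mM and 548, 406, 484, 597 and 553 at 10 mM at 24 h. The 10 mM arrays all lay above the water arrays, and the 0.5 mM arrays overlapped both. Scn4b rose by 1.15 (standard error 0.232, adjusted p 0.000102) at 10 mM, which held in every alternative run, and by 0.76 (adjusted p 0.0159) at 0.5 mM. At 48 h the groups overlapped, with 359.8, 221, 486, 250.5 and 377 in water and 403, 336, 685, 593 and 699 at 10 mM, and the change was 0.65 (adjusted p 0.023). For Scn4b at 0.5 mM, the call ended in 3 of 13 other settings (0.56 to 0.76), and without 0.5 mM replicate 3 or without water replicate 4 (0.63 to 0.65). For Scn4b at 10 mM and 48 h, the call ended without 10 mM replicates 3, 4 or 5 or without water replicates 2 or 4 (0.52 to 0.61). Scn3b (-0.25 to 0.03) and Scn11a (-0.42 to 0.73) were not called in any of the 4 treatment comparisons. Of the epithelial sodium channel, Scnn1b was lower at 10 mM and 48 h with a change of -0.49 (adjusted p 0.023), with 581, 612, 946, 641 and 798 in water and 546, 415, 466, 540.5 and 534 at 10 mM, and Scnn1g higher at 0.5 mM and 24 h by 0.59 (adjusted p 0.0425), while Scnn1a was not called in any of them. For Scnn1b, the call ended with centring on ribosomal protein genes (-0.30), and without 10 mM replicate 2 or without water replicates 3 or 5 (-0.44 to -0.38). For Scnn1g, the call ended in 6 of 13 other settings (0.32 to 0.63), and without 0.5 mM replicates 2, 4 or 5 or without water replicates 1, 3, 4 or 5 (0.48 to 0.61).

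**Figure D4:**
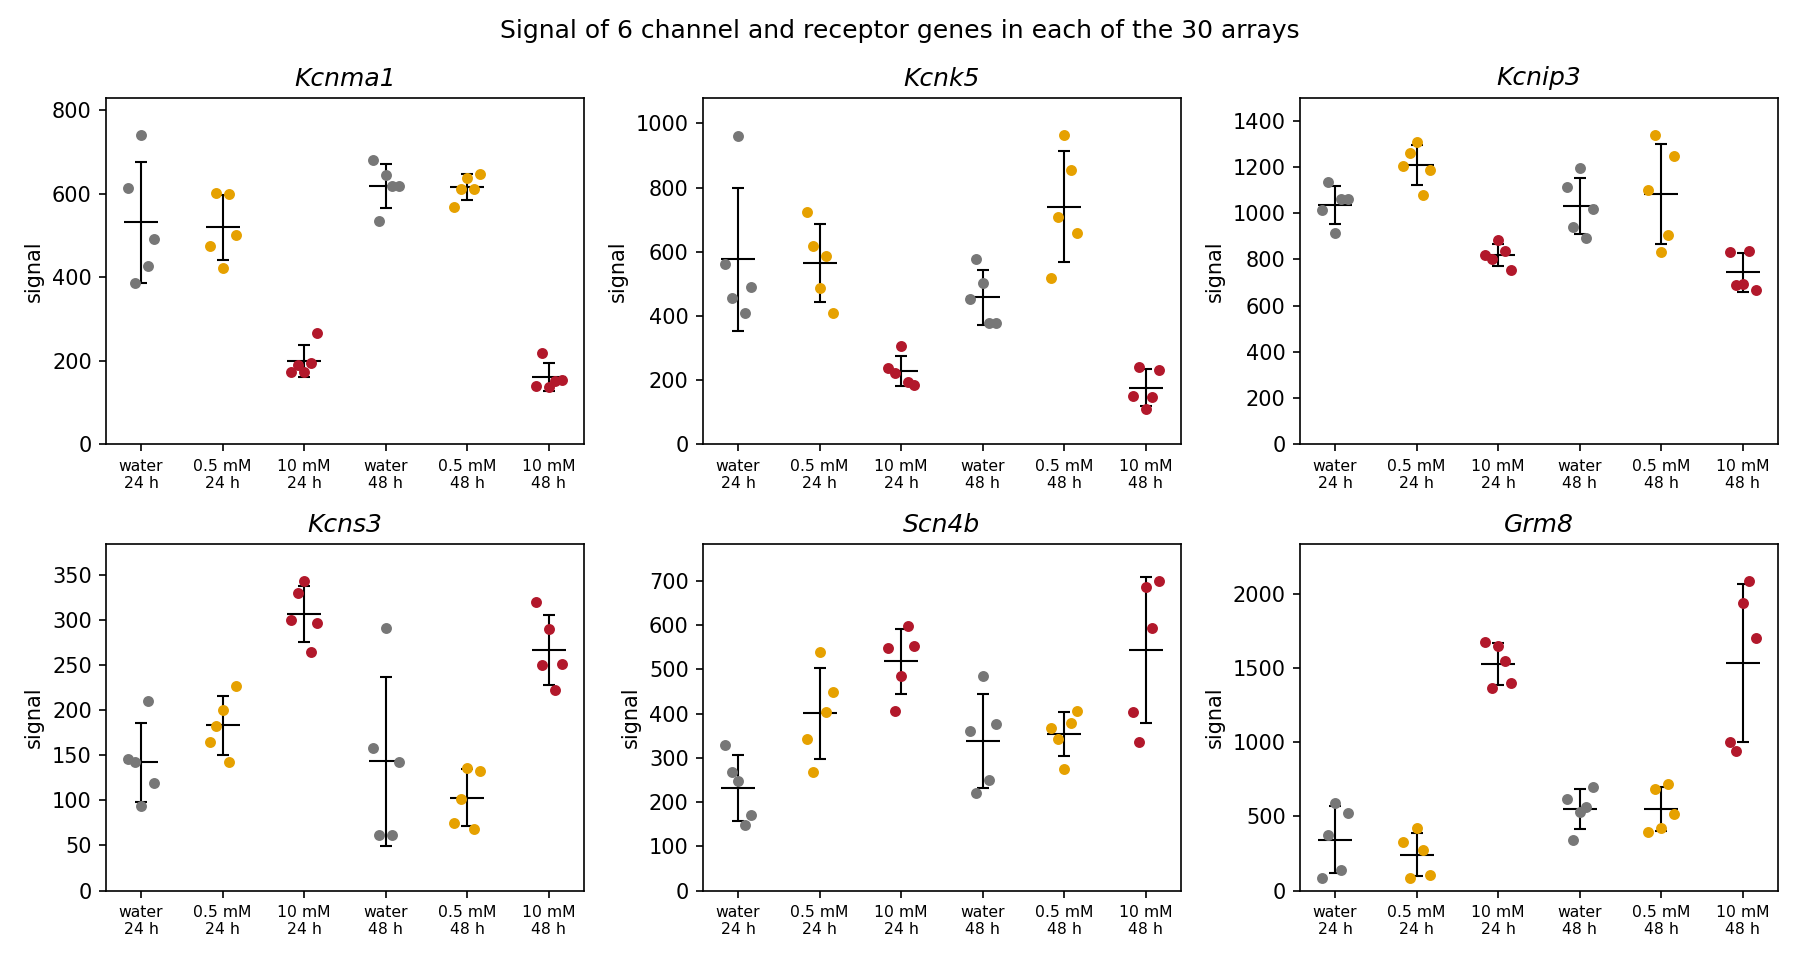
Points are the signals of the 30 arrays in the 6 groups for Kcnma1, Kcnk5, Kcnip3, Kcns3, Scn4b and Grm8, with the mean and SD of 5 arrays as bars, on linear axes from 0. The first 3 are low and Kcns3 and Grm8 are high at 10 mM at both times, while Scn4b at 48 h overlaps water.

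Among calcium channel genes, 1 was called in opposite directions at the 2 doses at 24 h. Cacna2d3, an auxiliary subunit that brings pores to the membrane, had signals of 401, 342, 381, 323 and 378 in water at 24 h, 790.4, 671, 632, 585 and 778 at 0.5 mM and 333, 205, 188, 165 and 303 at 10 mM. At 48 h these were 482, 362, 344, 299.6 and 416, 826, 863, 816, 655 and 756 and 523, 473, 431, 278 and 305. All 0.5 mM arrays exceeded all water arrays at both times, and at 10 mM 4 of 5 arrays at 24 h lay below every water array. Cacna2d3 rose at 0.5 mM by 0.89 (standard error 0.181, adjusted p 0.000512) at 24 h and 1.02 (adjusted p 8.77e-05) at 48 h, and fell at 10 mM and 24 h by 0.62 (adjusted p 0.00455), and these 3 calls held in every alternative run. At 10 mM and 48 h the change was 0.05 (adjusted p 0.847).

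Other calcium genes were called at 1 dose each, apart from Cacnb1. Cacna1e, a pore of the R type, was lower at 10 mM with a change of -0.59 (adjusted p 0.0207) at 24 h and -0.62 (adjusted p 0.0176) at 48 h. For Cacna1e at 24 h, the call ended with centring on ribosomal protein genes (-0.48), and without 10 mM replicate 3 or without water replicates 4 or 5 (-0.50 to -0.48). For Cacna1e at 48 h, the call ended with centring on ribosomal protein genes (-0.43), and without 10 mM replicate 3 or without water replicate 1 (-0.52 to -0.51). Cacna1a, the pore of the P/Q type, rose at 0.5 mM and 24 h by 0.67 (adjusted p 0.012), from 544, 735, 686, 589 and 720.3 to 1089, 963, 834, 1540.5 and 925. For Cacna1a, the call ended with the RNA quality covariates (0.52), and without 0.5 mM replicate 4 (0.53). Cacng5, a gamma subunit, rose by 0.87 (adjusted p 0.0193), from 271, 230, 205, 221 and 193 to 471, 396, 484, 366 and 399.5. For Cacng5, the call ended with quantile normalization (0.67) and with the RNA quality covariates (0.72). Cacnb1, a beta subunit, was higher at 0.5 mM and 24 h by 0.57 (adjusted p 0.0261) and lower at 10 mM and 48 h with a change of -0.50 (adjusted p 0.0332), and the 0.5 mM effect differed between times by -0.78 (adjusted p 0.0378). For Cacnb1 at 0.5 mM, the call ended with quantile normalization (0.46) and with centring on ribosomal protein genes (0.51), and without 0.5 mM replicate 5 or without water replicate 5 (0.41 to 0.54). For Cacnb1 at 10 mM, the call ended with centring on ribosomal protein genes (-0.31) and with the mean over the gene's probesets (-0.04), and without 10 mM replicates 1 or 2 or without water replicates 1, 3 or 5 (-0.49 to -0.37). For Cacnb1 between times, the call ended in 7 of 13 other settings (-0.98 to -0.16), and without 0.5 mM 24 h replicates 3 or 5 or without 0.5 mM 48 h replicates 2 or 3 or without water 24 h replicates 4 or 5 or without water 48 h replicates 1, 3 or 5 (-0.78 to -0.62).

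The largest rise of any member was that of Grm8, a metabotropic glutamate receptor that lowers cyclic AMP through an inhibitory G protein. Its kept probeset had signals of 84.6, 376, 589, 139.9 and 522 in water and 1677, 1363, 1648, 1548 and 1397 at 10 mM at 24 h, and 617, 338, 532, 562 and 698 and 998, 943, 1938, 2084 and 1705 at 48 h. Every 10 mM array lay above every water array, and the water arrays at 24 h were widely spread. The rise was 2.41 (standard error 0.393, adjusted p 4.7e-06) at 24 h, where the call held in every alternative run but the value was 0.91 with the mean over the gene's probesets, and 1.42 (standard error 0.393, adjusted p 0.00383) at 48 h. It was seen by 1 of 3 probesets: the second tested one had 0.25 (adjusted p 0.464) and 0.15 (adjusted p 0.676), and the third, below the filter, 0.08 and -0.04. For Grm8 at 48 h, the call ended with the mean over the gene's probesets (0.51). At 0.5 mM the kept probeset had -0.40 (adjusted p 0.487) and -0.01 (adjusted p 0.994), whereas the second was higher at 24 h by 0.92 (adjusted p 0.00917). The other tested metabotropic genes, Grm2, Grm4 and Grm6, were not called in any of the 4 treatment comparisons.

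Of the NMDA receptor genes, Grin1, the subunit every such receptor needs, was higher at 10 mM by 0.81 (adjusted p 0.034) at 24 h and 0.80 (adjusted p 0.0419) at 48 h, and at 0.5 mM and 24 h by 1.04 (adjusted p 0.0162). Its 24 h signals were 332, 289.8, 287, 257 and 54.1 in water, 521, 389, 526, 552 and 328 at 0.5 mM and 393, 427, 341, 396 and 372 at 10 mM. Water replicate 5 was far below the others. For Grin1 at 10 mM and 24 h, the call ended in 3 of 12 other settings (0.47 to 0.81), and without 10 mM replicates 1, 2 or 4 or without water replicate 5 (0.39 to 0.81). For Grin1 at 10 mM and 48 h, the call ended in 4 of 12 other settings (0.55 to 0.84), and without 10 mM replicates 1, 2, 3 or 5 or without water replicates 3 or 4 (0.62 to 0.82). For Grin1 at 0.5 mM, the call ended in 3 of 12 other settings (0.74 to 1.04), and without water replicate 5 (0.62). Grin3b, a glycine-gated member, was lower at 10 mM and 24 h with a change of -0.76 (adjusted p 0.0259), from 391, 426, 399, 422 and 427 to 245, 259, 339.9, 199 and 174, without overlap, and had 0.08 (adjusted p 0.866) at 48 h. For Grin3b at 24 h, the call ended with centring on ribosomal protein genes (-0.66), and without 10 mM replicates 4 or 5 (-0.70 to -0.65). Grin2a, Grin2b, Grin2c, Grin2d and Grik5 were not called in any of the 4 treatment comparisons. Gria3, an AMPA receptor subunit, lay below the filter, but its signals were 55.7, 101, 122, 83.4 and 62.6 in water and 246, 154, 205, 228 and 217 at 10 mM at 24 h and 129, 55.1, 76.3, 104 and 67.2 and 286, 268, 298, 370.4 and 306 at 48 h, without overlap. With no filter its differences were 1.19 (adjusted p 0.000748) and 1.69 (adjusted p 8.98e-06), and it was singled out after its values were seen. Grin3a, an NMDA receptor subunit also below the filter, went the other way at 10 mM and 24 h. Its difference with no filter was -1.44 (adjusted p 0.001), with overlapping signals, and it was not called at 48 h. In this 24 h comparison at 10 mM, the run with no filter called 6 of the 82 untested members higher and 3 lower. The same run put 26.2% of all 14217 genes on the higher side and 20.3% on the lower. Those shares are not limited to genes below the filter.

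The tested receptors for GABA, acetylcholine and serotonin gave few calls, and no tested GABA-A gene was called at 24 h. Of 8 tested GABA-A genes, Gabrq was lower at 10 mM and 48 h with a change of -0.55 (adjusted p 0.0432) and Gabre lower at 0.5 mM and 48 h with a change of -0.97 (adjusted p 0.0454). For Gabrq, the call ended in 4 of 13 other settings (-0.55 to -0.36), and without 10 mM replicates 2, 3, 4 or 5 or without water replicates 1, 3, 4 or 5 (-0.58 to -0.38). For Gabre, the call ended in 5 of 11 other settings (-0.97 to -0.75), and without 0.5 mM replicates 1, 2 or 5 or without water replicates 1, 2, 3 or 5 (-1.01 to -0.65). Gabrb2, Gabrd, Gabrg1, Gabrg3, Gabrr1 and Gabrr2 were not called against water. The rest of the 16 GABA-A genes lay below the filter. Among them, limma with no filter gave Gabra5 0.96 (adjusted p 0.0356) at 10 mM and 24 h and 1.28 (adjusted p 0.00598) at 48 h. It gave Gabra4 -1.27 (adjusted p 0.0319) at 10 mM and 48 h. Their signals overlapped those in water, and both genes were singled out after their values were seen. That run called 23.1% of all genes higher and 17.7% lower at 10 mM and 48 h. For Gabrg1 the effect of 0.5 mM differed between times by -1.497 (adjusted p 0.0499), but the call ended in 10 of 12 other settings (-1.77 to -1.13), and without 0.5 mM 24 h replicates 2, 3, 4 or 5 or without 0.5 mM 48 h replicates 1 or 3 or without water 24 h replicates 1, 2, 3 or 4 or without water 48 h replicates 1, 3, 4 or 5 (-1.57 to -0.93). The 1 tested glycine receptor gene, Glra1, had -0.43 (adjusted p 0.379) and -0.46 (adjusted p 0.363) at 10 mM. Chrnb1, a nicotinic subunit known from muscle, fell at 10 mM and 48 h by 0.78 (adjusted p 0.000504), with 469.8, 567, 811, 625 and 764 in water and 221, 405, 456, 411 and 373 at 10 mM, which do not overlap. For Chrnb1 at 10 mM, the call ended with the mean over the gene's probesets (-0.48). At 0.5 mM and 48 h it was lower with a change of -0.50 (adjusted p 0.039), and the effect differed between times by -0.73 (adjusted p 0.0371). For Chrnb1 at 0.5 mM, the call ended in 7 of 13 other settings (-0.50 to -0.32), and without 0.5 mM replicates 2, 3 or 4 or without water replicates 3, 4 or 5 (-0.51 to -0.42). For Chrnb1 between times, the call ended in 7 of 13 other settings (-0.73 to -0.49), and without 0.5 mM 24 h replicates 1, 4 or 5 or without 0.5 mM 48 h replicates 2, 3 or 4 or without water 24 h replicates 4 or 5 or without water 48 h replicates 3 or 5 (-0.73 to -0.65). Htr4, a serotonin receptor that raises cyclic AMP, fell at 10 mM and 48 h by 0.74 (adjusted p 0.0018), from 539, 526, 731, 519 and 501 to 389, 343, 217, 313 and 406, without overlap and in every alternative run.

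Htr5a and Htr2c, further serotonin receptors, differed in their response to 0.5 mM between the times. Htr5a rose at 24 h by 0.88 (adjusted p 0.0404), from 424, 560.5, 457, 576 and 604 to 812, 953, 1470.4, 943 and 796, and had -0.60 (adjusted p 0.183) at 48 h, a difference of -1.48 (adjusted p 0.0191). For Htr5a at 24 h, the call ended in 6 of 13 other settings (0.78 to 0.88), and without 0.5 mM replicates 2, 3 or 4 or without water replicates 1, 2 or 3 (0.73 to 0.91). For Htr5a between times, the call ended with a fit of only the groups compared (-1.48) and with the RNA quality covariates (-1.19). Htr2c had 0.40 (adjusted p 0.0693) at 24 h and was lower at 48 h with a change of -0.48 (adjusted p 0.0306), a difference of -0.88 (adjusted p 0.00801). For Htr2c at 48 h, the call ended in 7 of 13 other settings (-0.48 to 0.00), and without 0.5 mM replicates 1, 3 or 5 or without water replicates 3 or 5 (-0.48 to -0.41). For Htr2c between times, the call ended in 3 of 13 other settings (-0.70 to -0.55). At 0.5 mM, the effect at 48 h less that at 24 h was called for 3 members on the higher side and 8 on the lower, against 12% and 9.69% of genes.

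**Figure D5:**
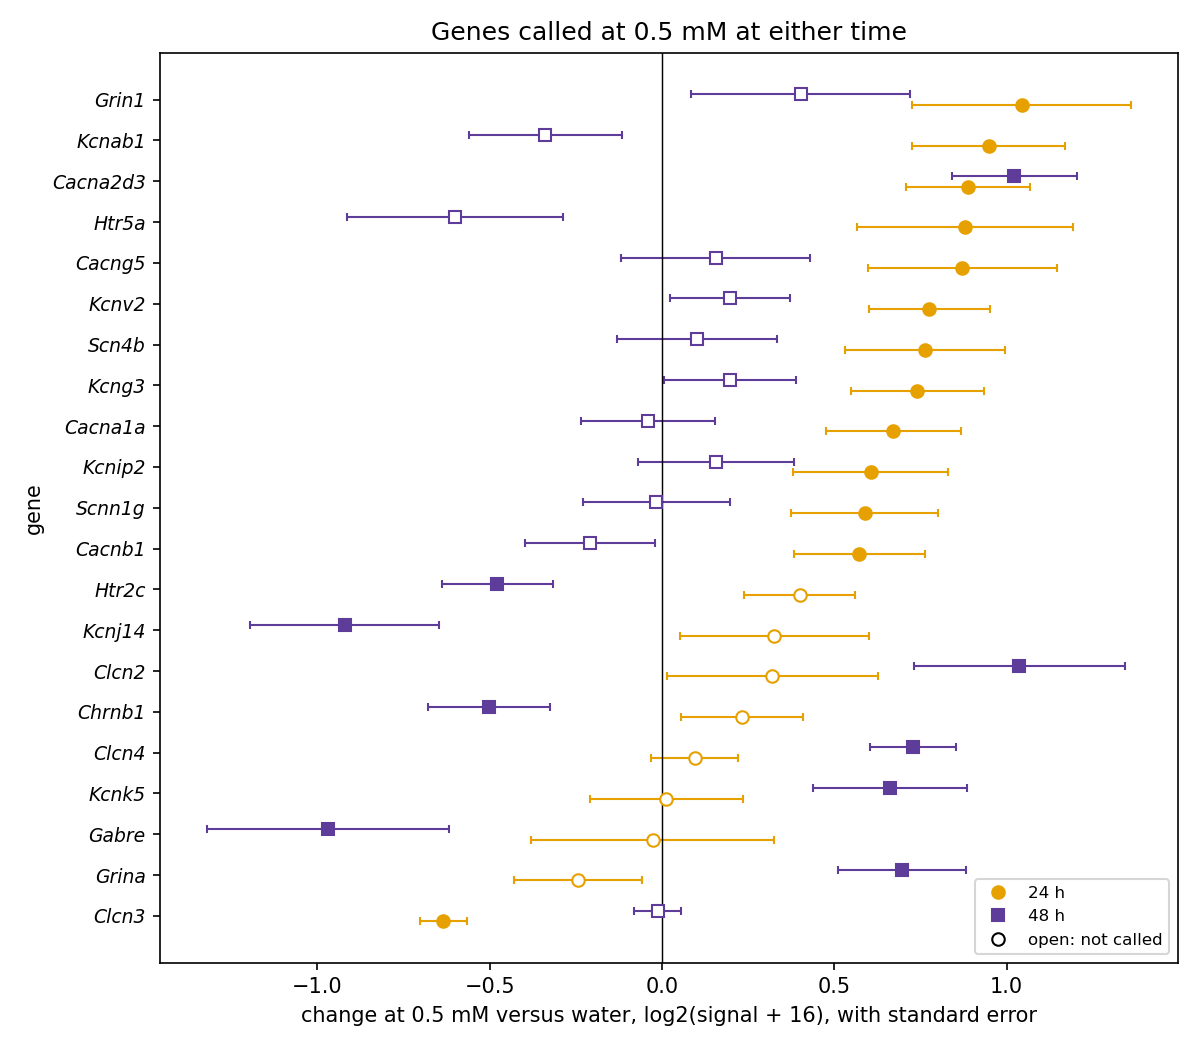
Points are changes at 0.5 mM against water in log2(signal + 16) with the standard error, at 24 h (circles) and 48 h (squares), for the 21 genes called at either time; open points were not called. Cacna2d3 is the gene called at both times, and Clcn3 is the gene called lower at 24 h.

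Of the 5 genes that share only a prefix, Htra1, a secreted serine protease, rose by 0.97 (standard error 0.0784, adjusted p 5.01e-12) and 0.90 (adjusted p 4.47e-11) at 10 mM. Its signals were 2702, 2389.9, 3152, 2387 and 2688 in water and 5396, 5166, 4866, 5104 and 5460 at 10 mM at 24 h, and 2915, 2546, 2802, 2690.3 and 2767 and 5130, 4652, 5285, 5096 and 5441 at 48 h, without overlap. Scnm1, a splicing factor, rose by 0.65 (adjusted p 1.81e-05) and 0.64 (adjusted p 3.08e-05), and the calls of both genes held in every alternative run. Htra3, a related protease, fell at 48 h by 1.51 (adjusted p 0.000435), from 335, 369.5, 413, 391 and 468 to 44.4, 141, 121, 208 and 195, and was lower at 24 h with a change of -0.90 (adjusted p 0.0269). For Htra3 at 24 h, the call ended in 3 of 11 other settings (-0.84 to -0.80), and without 10 mM replicate 3 or without water replicates 2 or 3 (-0.84 to -0.56). Htra2, a mitochondrial protease, was not called in any of the 4 treatment comparisons. Grina was lower at 10 mM and 24 h with a change of -0.44 (adjusted p 0.0484) and higher at 0.5 mM and 48 h by 0.70 (adjusted p 0.00597). Its signal was 19517 on water 24 h replicate 3 and 20363, 15035 and 14526 on 0.5 mM 48 h replicates 3, 4 and 5, while the other 26 arrays lay between 6922 and 10339. The actin ratio of those 4 arrays was 2.76, 2.76, 2.23 and 1.74 on the log2 scale, the highest of the series. For Grina at 0.5 mM, the call ended with the RNA quality covariates (0.12). For Grina at 10 mM, the call ended in 7 of 13 other settings (-0.44 to -0.10), and without any 1 of the 5 10 mM arrays or without water replicates 1 or 3 (-0.47 to -0.22). The 0.5 mM effect on Grina differed between times by 0.94 (adjusted p 0.0125). For Grina between times, the call ended with the RNA quality covariates (-0.07) and with leaving out the 3 arrays of highest actin ratio (0.39).

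Channels and receptors outside the prefixes were counted from a list of 99 further genes, of which 60 were tested. At 10 mM and 24 h 9 of the 60 were higher and 15 lower, beside the 31.1% and 25% of all genes, and at 48 h 8 and 15, beside 27.6% and 22.3%. At 0.5 mM they were 9 and 7 (12.7% and 16.1% of all genes), then 5 and 3 (11.9% and 14.1%), and between the times in water 1 and 2 (5.11% and 4.96%). The largest falls at 24 h were those of Abcc9, the sulfonylurea receptor subunit of a potassium channel gated by ATP (-2.73, adjusted p 3.12e-14), of P2rx5 (-1.72) and P2rx4 (-1.70), channels gated by extracellular ATP, and of Abcc8 (-0.76), a second sulfonylurea receptor. The largest rises were those of Cnga2, a channel gated by cyclic nucleotides (1.41), Trpv6, a calcium entry channel (1.08), Gabbr1, a subunit of the metabotropic GABA receptor (1.04), and Orai1, the pore of store-operated calcium entry (1.03). The tested factors of RE1 silencing gave 3 higher and 1 lower of 9 at 10 mM and 24 h and 5 and 1 at 48 h, and at 0.5 mM 2 and 1, then 1 and 3. Rest itself had 0.38 (adjusted p 0.472) and 0.68 (adjusted p 0.187) at 10 mM. Of its partners, Hdac1, a histone deacetylase, rose by 2.27 and 1.54, Hdac2 by 0.35 and 0.16, and Sin3b, a corepressor scaffold, by 0.68 and 0.43. Sin3a and Rcor1 had 0.30 and 0.47 at 24 h, neither called, and rose by 0.61 and 0.54 at 48 h. Rcor3 had -0.03 at 24 h and fell by 0.48 at 48 h, Ehmt2, a histone methyltransferase, fell by 0.39 at 24 h and had 0.27 at 48 h, Kdm1a had 0.15 at both times without a call, and Rcor2 lay below the filter.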

How the data were processed

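Each of the 30 samples is 1 rat expression array of 31099 probesets. The deposited values are signal intensities on a linear scale, made by the authors with MAS5 per the submitters' processing notes; the sources used here give no version, settings or target level. Signal at low levels is noisy, and probesets are read from few probes, so the standard errors of dim genes are large. Of the probesets, 57 are controls, 20826 have 1 symbol in the platform annotation, 436 several and 9780 none.

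Values were taken as log2(signal + 16). Probesets under the 30th percentile of mean log2 value (7.394, a signal of 152.2) were left out, which kept 21729. Just inside this limit were Kcns1 (7.420), Htr7 (7.430) and Kcnh4 (7.433), and just outside Htr1f (7.345) and Clcn5 (7.339). Means of the 6 groups were fitted together in limma 3.58.1 (R 4.3.3) with a variance trend and 24 residual degrees of freedom, with Benjamini-Hochberg adjustment of p-values in each of 7 comparisons. A gene was followed by its probeset of highest mean, and 74 members have several. Changes are on the log2(signal + 16) scale, which understates those of dim genes.

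The method was tested on simulated data for 10 mM at 24 h over 21729 probesets: 32% of 50 probesets changed by 0.5 were called, 83% of 100 changed by 1 and 90% of 50 changed by 2. In the data far more was called (31.1% of genes higher and 25% lower), and the cutoff on adjusted p depends on that share. The members also had a median standard error of 0.268, against 0.132 for all genes, so these rates are not those of the members. The members and gene lists were chosen with earlier results of these data known. Named are the largest called changes, up to 10 in each direction of each treatment comparison and 5 of each interaction or time comparison, all tested sodium channel, GABA-A, CLC and glutamate receptor genes, the prefix-only genes, up to 4 called changes in each direction of the further channel list, and all RE1 factors. The other called members were added after their values were seen, as were the bands of signal. The alternatives were 13 settings (pseudocount, scaling, filter, variance prior, samples in the fit, array weights, probesets of a gene, a running-number block of 5 runs of 6 arrays, and RNA quality) and leaving out each array. A setting that put a gene below its filter gave no result for that gene and was not counted. Dim genes such as Kcnma1 (12 settings) and Kcnv2 (11) therefore met fewer settings, and a call said to hold did so where the gene was tested. Promoters are those of RefSeq (GRCr8).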

Additional observations from a re-analysis of the deposited data

Results flagged for a closer look

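The gap of an extreme array to its nearest neighbour, as a share of the group's range of log2(signal + 16), was above Dixon's critical value of 0.71 in 24 of 366 sets of 5 arrays (6.56%), over 61 members and 6 groups. Chance alone places an array apart in about 1 in 20 such sets.

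In the group in water at 24 h, Grina on replicate 3 (share 0.712, signal 19517, the others 7993 to 10339) stood above the other 4 arrays. In the group in water at 24 h, Gabrq on replicate 3 (share 0.76, signal 273, the others 499 to 602), Gabrr2 on replicate 5 (share 0.804, signal 71.1, the others 251 to 335) and Grin1 on replicate 5 (share 0.85, signal 54.1, the others 257 to 332) stood below the other 4 arrays. In the group in water at 48 h, Grin2a on replicate 2 (share 0.716, signal 254, the others 131 to 159) and Htr4 on replicate 3 (share 0.807, signal 731, the others 501 to 539) stood above the other 4 arrays. In the group in water at 48 h, Clcn2 on replicate 3 (share 0.797, signal 57.8, the others 246 to 345), Clcn4 on replicate 3 (share 0.813, signal 7327, the others 8142 to 8341) and Grin2c on replicate 2 (share 0.722, signal 432, the others 1016 to 1409) stood below the other 4 arrays. In the group in water at 48 h, Grin3b on replicate 4 (share 0.732, signal 113, the others 346 to 513), Grm2 on replicate 2 (share 0.815, signal 46.7, the others 207 to 282) and Kcnab3 on replicate 4 (share 0.711, signal 85.4, the others 178 to 237) stood below the other 4 arrays. In the group in water at 48 h, Scn11a on replicate 1 (share 0.738, signal 59.0, the others 178 to 257) stood below the other 4 arrays. In cultures given 0.5 mM at 48 h, Gabrg1 on replicate 1 (share 0.806, signal 21, the others 197 to 308), Grm6 on replicate 4 (share 0.863, signal 25.2, the others 224 to 301) and Htr5a on replicate 5 (share 0.832, signal 92.1, the others 568 to 806) stood below the other 4 arrays. In cultures given 10 mM at 24 h, Kcnma1 on replicate 5 (share 0.74, signal 267, the others 173 to 194) stood above the other 4 arrays. In cultures given 10 mM at 24 h, Htra3 on replicate 3 (share 0.72, signal 73.8, the others 240.2 to 369) stood below the other 4 arrays. In cultures given 10 mM at 48 h, Clcn4 on replicate 2 (share 0.712, signal 3658, the others 1725 to 2142), Grin3b on replicate 2 (share 0.803, signal 687, the others 266 to 321) and Kcnma1 on replicate 2 (share 0.754, signal 219, the others 138 to 154) stood above the other 4 arrays. In cultures given 10 mM at 48 h, Chrnb1 on replicate 1 (share 0.722, signal 221, the others 373 to 456), Grm2 on replicate 4 (share 0.861, signal 26.8, the others 164 to 211) and Kcnj14 on replicate 2 (share 0.752, signal 197, the others 340.1 to 406) stood below the other 4 arrays.

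The effect of 0.5 mM against water differed between 48 h and 24 h, by limma's interaction term, for 11 named members. Cacnb1 differed by -0.78 (adjusted p 0.0378). Chrnb1 differed by -0.73 (adjusted p 0.0371). Clcn3 differed by 0.62 (adjusted p 0.000108). Clcn4 differed by 0.63 (adjusted p 0.0128). Gabrg1 differed by -1.497 (adjusted p 0.0499). Grina differed by 0.94 (adjusted p 0.0125). Htr2c differed by -0.88 (adjusted p 0.00801). Htr5a differed by -1.48 (adjusted p 0.0191). Kcnab1 differed by -1.29 (adjusted p 0.00516). Kcnj14 differed by -1.25 (adjusted p 0.0232). Kcnk6 differed by -0.92 (adjusted p 0.0468). The calls of 10 of these 11 ended under at least 1 alternative, and that of Clcn3 held.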

How the results depend on the processing

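The counts of called members moved with the scaling, the filter and the choice of probeset. The filter at the 50th percentile left 41 members to test in place of 116, so calls of dimmer members could not be counted there. The cause of the other moves was not tested. At 10 mM and 24 h, 10 members were higher, 6 with quantile normalization and 5 with a filter at the 50th percentile, and 10 were lower, 5 with ribosomal centring and 5 with the mean over a gene's probesets. At 48 h, 10 were higher, 6 with the 50th percentile filter and 6 with the mean over probesets, and 15 were lower, 7 with ribosomal centring and 7 with that mean. At 0.5 mM and 24 h, 12 were higher, 7 with each of quantile normalization, ribosomal centring, the 50th percentile filter and the mean over probesets, and 1 was lower, 2 with quantile normalization. At 0.5 mM and 48 h, 5 were higher, 2 with the RNA quality covariates and 3 without the 3 arrays of highest actin ratio. The 4 lower there became 0 with ribosomal centring and with only the groups compared, 2 with no filter and with the 50th percentile filter, and 1 with array weights, the mean over probesets, the RNA quality covariates and without those 3 arrays.

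Between times in water, the 0 higher became 1 with no filter, array weights, the mean over probesets, the running-number block, the RNA quality covariates and without those 3 arrays, and the 1 lower became 0 with a pseudocount of 64, both scalings, no variance trend, the mean over probesets, the block and the covariates. For the change of the 10 mM effect between times, the 0 higher became 1 with quantile normalization, array weights, the block and without the 3 arrays, and the 0 lower became 1 with no filter, only the groups compared and the mean over probesets, and 2 with array weights. For that of the 0.5 mM effect, the 3 higher became 5 with ribosomal centring and 1 with the covariates and without the 3 arrays, and the 8 lower became 3 with quantile normalization and the mean over probesets, 2 with ribosomal centring, 4 with no filter, only the groups compared, array weights and without the 3 arrays, and 0 with the covariates.

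Leaving out 1 array gave 9 to 14 higher and 7 to 10 lower at 10 mM and 24 h, 6 to 10 and 9 to 15 at 48 h, 8 to 14 and 1 to 1 at 0.5 mM and 24 h, and 4 to 6 and 1 to 4 at 48 h. The 6 higher at 10 mM and 48 h came without water replicate 4 and the 9 lower without water replicates 1 or 3. At 0.5 mM and 48 h, 1 was lower without water replicates 3 or 5 and 2 without 0.5 mM replicates 3 or 5. It gave 0 to 1 higher and 0 to 1 lower between times in water, 0 to 2 and 0 to 1 for the 10 mM interaction, and 3 to 4 and 4 to 9 for that of 0.5 mM, where 4 were lower without water 48 h replicates 3 or 5, 0.5 mM 48 h replicate 3 or 0.5 mM 24 h replicate 5, and 5 without water 24 h replicate 5.

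Of the called values, 3 changed sign under an alternative, and values that were not called could lie on either side of 0. The change of Htr2c at 0.5 mM and 48 h was 0.0025 with the mean over probesets (adjusted p 0.996), that of Clcn4 between times at 0.5 mM was -0.17 with that mean (adjusted p 0.632), and that of Grina between times was -0.068 with the RNA quality covariates (adjusted p 0.89). Of the called values, 9 of 20 at 10 mM and 24 h, 9 of 25 at 48 h, 4 of 13 and 1 of 9 at 0.5 mM kept their call in every alternative that tested the gene and with every array left out in turn. The running-number block, which joins the arrays of equal replicate number, ended 4 calls: Gabrq (adjusted p 0.0508) and Kcnd3 (0.06) at 10 mM and 48 h, Kcnip2 at 0.5 mM and 24 h (0.0501) and Clcn3 in water (0.0656). It made 1 call among the values named, Gabrr2 at 0.5 mM and 48 h (adjusted p 0.0402). The labels do not say that these runs share a plate, day or animal. With 5 arrays a group and dim probesets, the number of arrays limits the precision, and in the simulation changes of 0.5 were often missed.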
